A study of Mus musculus with 30 samples.

Results

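Peaks of open chromatin that lie inside very long genes were described in the ventral hippocampus of mice. A peak was taken when it lay on chromosomes 1 to 19, wholly inside a RefSeq protein-coding gene of at least 500000 bp (GRCm38), and more than 1 kb from the ends of every gene. The rule found 15902 of the 257149 peaks, or 6.18%, in 214 of 216 such genes. Malrd1 and Skint5 held none. All 15902 peaks passed the filter on low counts and were tested, and 118 of them lay in more than 1 of the long genes.

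ATAC-seq uses a transposase to cut DNA where chromatin is open and then sequences the fragments, and it was applied to ventral hippocampus nuclei from 30 mice. At 45 min there were 7 mice with a history of chronic restraint and 7 with a history of handling, and at 0 min there were 8 of each, with both sexes in each of the 4 groups and 4 batches in all. Chronic restraint was a daily period in a tube for 10 days and handling was a gentle lift by the tail. All mice were then housed singly for 24 hours, and those of the 45 min groups were collected 45 min after a final restraint began. Those of the 0 min groups came straight from the home cage. Each library was made from nuclei of 1 ventral hippocampus. The labels gave no strain, age or genotype.

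Genes of this length are rare in the genome and are concentrated among those used by neurons. Many encode adhesion molecules of the synapse, axon guidance receptors, ion channels and RNA-binding proteins. Most of their length is intron, and introns of such genes hold enhancers and the start sites of shorter isoforms. RNA polymerase takes hours to cross the longest of them, and several are known as common fragile sites. The gene table gave the extents of genes without exons, so exons and introns were not told apart here. A peak inside a long gene need not act on that gene.

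RefSeq lists start sites well inside many of these genes, and the peaks over them are the members whose function the annotation gives. The RefSeq table of promoters (GRCm38.p6, 250 bases before to 50 after each start) held 271 start sites for 169 of the long genes. Of these sites 135 lay more than 1 kb inside the gene, and 72 of the 135 fell in 66 member peaks of 50 genes. The windows below are the internal start that lay in a called peak (Hdac9), the internal start whose peak had the highest accessibility per kb (Schip1), an internal start in a CpG-dense window (Dab1) and the internal start with the largest positive acute difference (Cacna1c). They were chosen after their values were seen. Each is printed 5′ to 3′ on the strand of its gene, and the capitals mark CG pairs.
Hdac9, chr12:34528840-34529139, minus strand: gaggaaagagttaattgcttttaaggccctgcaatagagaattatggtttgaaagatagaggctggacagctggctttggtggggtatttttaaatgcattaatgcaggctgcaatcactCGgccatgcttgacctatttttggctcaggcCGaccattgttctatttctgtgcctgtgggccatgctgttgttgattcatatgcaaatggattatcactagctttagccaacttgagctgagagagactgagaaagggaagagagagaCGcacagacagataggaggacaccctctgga
Schip1, chr3:68572118-68572417, plus strand: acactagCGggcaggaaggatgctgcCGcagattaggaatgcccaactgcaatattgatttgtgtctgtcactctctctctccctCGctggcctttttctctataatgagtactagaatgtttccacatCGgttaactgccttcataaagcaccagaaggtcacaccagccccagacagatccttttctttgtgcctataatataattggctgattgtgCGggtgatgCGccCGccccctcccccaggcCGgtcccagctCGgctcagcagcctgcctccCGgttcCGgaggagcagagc
Dab1, chr4:104367288-104367587, plus strand: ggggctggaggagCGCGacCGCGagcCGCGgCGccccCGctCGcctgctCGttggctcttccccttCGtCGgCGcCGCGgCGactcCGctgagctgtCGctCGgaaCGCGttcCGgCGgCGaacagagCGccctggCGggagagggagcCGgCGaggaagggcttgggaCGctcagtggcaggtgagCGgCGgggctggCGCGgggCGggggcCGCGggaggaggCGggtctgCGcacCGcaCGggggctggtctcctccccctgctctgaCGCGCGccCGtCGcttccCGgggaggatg
Cacna1c, chr6:118757925-118758224, minus strand: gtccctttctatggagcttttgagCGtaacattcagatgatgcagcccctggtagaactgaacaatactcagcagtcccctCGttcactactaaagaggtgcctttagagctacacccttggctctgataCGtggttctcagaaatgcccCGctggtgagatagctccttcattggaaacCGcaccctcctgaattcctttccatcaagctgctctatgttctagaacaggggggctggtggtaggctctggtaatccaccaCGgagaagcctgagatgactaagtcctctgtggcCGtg

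The Hdac9 window held 3 CG pairs, the Schip1 window 11, the Dab1 window 46 and the Cacna1c window 7. The median of all 31396 promoter windows on chromosomes 1 to 19 was 7. Of the 72 windows in member peaks, 41.7% held at least 10 CG pairs, against 44% of all windows. Both strands of the windows were searched for 6 motifs: the TATA box (TATAAA), an E-box (CACGTG), the AP-1 site (TGACTCA), the cyclic AMP response element (TGACGTCA), a glucocorticoid response element and a MEF2 site. Class IIa histone deacetylases such as Hdac9 are known to bind MEF2 factors. The Hdac9 window was 1 of 2 among the 72 that matched this open pattern (2.78%), against 3.73% of all windows. Its match read ctagctttag, with g and c among the open bases, so it need not be a MEF2 site. The TATA box was found in 1.39% of the 72 windows against 13.6% of all, the E-box in 4.17% against 7.14%, and the AP-1 site in 1.39% against 5.26%. The cyclic AMP response element was found in 0 of the 72 windows against 1.83% of all, and the glucocorticoid response element in 0 of the 72 against 0.487%. A match says only that these letters were in the window.

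The peaks were spread very unevenly over the long genes. The median gene held 40 peaks and the range ran from 3 to 360. Rbfox1, a neuronal splicing regulator, held 360 peaks and Celf2, an RNA-binding protein, held 356. Dlgap2, a scaffold of the postsynaptic density, held 337 peaks, Tenm2, a teneurin that binds latrophilins across the synapse, 321, and Erc2, a scaffold of the presynaptic active zone, 285. Next came Kalrn with 276, Ptprn2 and Slit3 with 275 each, Anks1b with 273 and Dab1 with 271. None of these 10 genes was among the 5 longest.

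The 5 longest genes held 1.80 to 5.28 peaks per 100 kb, against a median of 4.78 over the long genes that held a peak, and Lsamp alone of the 5 lay above that median. Ptprd, a synaptic receptor phosphatase of 2271 kb, held 73 peaks. Cntnap2, a neurexin-type adhesion molecule of 2241 kb, held 48, and Lsamp, an adhesion molecule of the limbic system of 2197 kb, held 116. Lrp1b, an endocytic receptor of 2058 kb, held 37 peaks, and Macrod2, an ADP-ribose hydrolase of 1998 kb, held 62. Per length the densest gene was Ryr2, the ryanodine receptor that releases calcium from internal stores, with 48.2 peaks per 100 kb. Kalrn, a synaptic exchange factor for small GTPases, had the largest share of its length in peaks among the 5 densest genes, 67.1%. The sparsest was Spag16, a protein of motile cilia, with 0.445 peaks per 100 kb, followed by Foxp2, a transcription factor, with 0.555 and Erbb4, a neuregulin receptor, with 0.557.

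**Figure D1:**
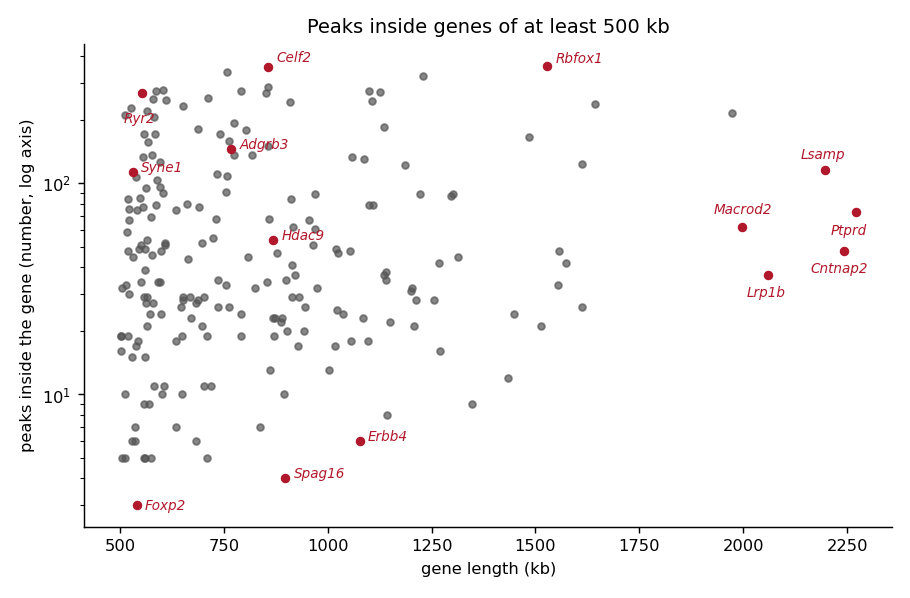
Number of peaks inside each gene (log axis) against the length of the gene in kb, with 1 point per gene for the 214 genes that held a peak. Named genes are drawn in red: Rbfox1 and Celf2 hold 360 and 356 peaks, while Foxp2 holds 3 and the longest gene, Ptprd, holds 73.

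Peaks were rarer and narrower inside very long genes than inside shorter ones. The long genes held 8.79 peaks per 100 kb, against 17.2 in genes of 100 kb to under 500 kb and 16.3 in genes under 100 kb, counted by the same rule. The median peak was 472 bp wide inside long genes, against 537 and 571 bp in the 2 classes of shorter genes. The median over member peaks of the mean count was 49.55. Per kb of peak the order turned round. The mean peak inside long genes had 2.96 ± 0.105 CPM per kb (SD over 30 libraries), against 2.89 ± 0.0326 in genes of 100 kb to under 500 kb and 2.85 ± 0.0365 in genes under 100 kb, where CPM is the count per 1000000 counts of the scaled library total. The difference of 0.0646 from the longer of these classes was negative in 6 of 30 libraries (two-sided permutation test by sign flips, p = 3e-05), and that of 0.109 from the other in 5 of 30 (p = 1e-05, the smallest that the resamples can give). Without animal 45, a library described below, the differences were 0.0539 and 0.0916 (permutation p = 1e-05 each). Every library holds the same peaks, so these p-values say only that the difference recurs between libraries. The part of the narrower width of member peaks in their level per kb was not tested.

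Along the genes, the peaks leaned to the 3′ end. The 168 genes whose strand was known were cut into 5 equal stretches. The one nearest the 5′ end held 17.3% of the peaks and 16.5% of their CPM. The one nearest the 3′ end held 25.5% of the peaks and 29.1% of their CPM. The level per kb of peak was alike along the gene, with medians between 2.72 and 2.75 CPM per kb over the 5 equal stretches. The 66 peaks over an internal start site were wider, with a median of 1445 bp against 471 bp in the other member peaks, and their median level was 3.63 CPM per kb against 2.73. Of the 100 member peaks with the highest CPM per kb 3 held such a site, against 0.415% of all member peaks.

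At the series level, total counts in peaks ran from 26104576 to 55294838 per library, and member peaks took 3.20% to 3.45% of them. The library of animal 45, a handled mouse at 0 min, stood apart. The log2 ratio of its counts in member peaks to its counts in interior peaks of shorter genes was -3.32, while the other 7 handled mice at 0 min had -3.54 to -3.43, and 48.3% of its counts lay near gene ends. Of 7 marker genes of excitatory neurons 6 had a peak at a gene end, with a summed level of 902 to 981 CPM at 45 min and of 863 to 1100 CPM at 0 min. Of 6 genes used by tissues other than brain, 1 had a peak at a gene end. The 9 marker lists held 2 to 13 peaks each, and 0 of these peaks were called for the acute effect. Over all tested peaks 0.116% were called, so lists this small would rarely hold a call and their 0 says little. The part of cell composition in the results below was not tested.

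Acute restraint changed 23 of the 15902 member peaks, 8 of them higher and 15 lower at 45 min than at 0 min, averaged over both histories (edgeR quasi-likelihood test over all 257143 tested peaks, Benjamini-Hochberg adjusted p under 0.05). Over all tested peaks 0.116% were called, 0.0731% higher and 0.0432% lower. Among the member peaks 0.145% were called, 0.0503% higher and 0.0943% lower. The 23 peaks lay in 20 genes, between 7729 and 353607 bp from the nearest gene end. In bulk tissue, fewer nuclei of a type with an open site and less opening per nucleus cannot be told apart. Each of the 23 differences had the same sign in both histories and in all 4 batches. That is a description, since the peaks were chosen on the pooled difference. The count depended on the libraries that entered: 2 peaks were called without batch 2, 13 without batch 3, 15 without batch 1 and 18 without batch 4, while 45 were called without animal 45 and 132 when each library's concentration of counts in its strongest peaks (the top 1% by coverage) entered as a covariate. The shares called over all peaks in these settings are not given here. These counts therefore do not say whether member peaks moved more than the rest.

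The smallest p of the peaks that rose belonged to Rora (chr9:68679910-68680292), which encodes a nuclear receptor that drives transcription of clock genes. Its lowest, median and highest levels were 1.09, 1.41 and 2.37 CPM in chronically restrained mice at 45 min, against 0.778, 0.953 and 1.73 CPM in chronically restrained mice at 0 min. They were 1.24, 1.38 and 1.89 CPM in handled mice at 45 min, against 0.260, 0.773 and 1.27 CPM in handled mice at 0 min. Of the 16 libraries at 0 min, 14 lay below every library at 45 min. The averaged log2 change was 0.76 ± 0.117 (SE, adjusted p = 8.62e-05). The peak was also the only member called within handled mice, with 0.99 ± 0.168 (adjusted p = 0.00305), against 0.52 ± 0.161 in chronically restrained mice (adjusted p = 0.85). The call in handled mice was lost without batch 2 (adjusted p = 0.61) and without batch 3 (adjusted p = 0.137). The difference between these changes was -0.47 ± 0.232 and did not pass the test (unadjusted p = 0.0462, adjusted p = 1).

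A wide peak inside Cadps2 (chr6:23458642-23460746), which encodes a protein that primes dense-core vesicles for release, had the highest level of the called peaks. It had 27.7, 33.1 and 46.3 CPM (lowest, median and highest) in the 14 libraries at 45 min, against 22.3, 26.5 and 33.6 CPM in the 16 at 0 min. The groups overlapped, but all 14 libraries at 45 min lay above the median at 0 min. The log2 change was 0.36 ± 0.057 (adjusted p = 0.000936), and it was near this size in chronically restrained mice (0.35 ± 0.08) and in handled mice (0.38 ± 0.08).

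The other 6 peaks that rose each lay in a different gene. The peak in Lpp (chr16:24780282-24780905), a protein of focal adhesions, had 1.68 to 2.62 CPM with a median of 2.04 at 45 min, against 0.898 to 2.14 CPM with a median of 1.45 at 0 min. Its log2 change was 0.48 ± 0.096 (adjusted p = 0.00896), with 10 of 16 libraries at 0 min below every library at 45 min. The peak in Kirrel3 (chr9:34907910-34908494), an adhesion molecule of the immunoglobulin type, had 2.46 to 4.12 CPM with a median of 2.81 at 45 min, against 1.77 to 2.82 CPM with a median of 2.28 at 0 min. Its log2 change was 0.35 ± 0.08 (adjusted p = 0.0375), and 7 of 14 libraries at 45 min lay above every library at 0 min. The remaining peaks of this direction lay in Magi2, a scaffold of synaptic junctions (0.34 ± 0.074, adjusted p = 0.0228), Adarb2, a relative of the RNA-editing enzymes (0.33 ± 0.07, adjusted p = 0.0248), Mast4, a kinase bound to microtubules (0.34 ± 0.077, adjusted p = 0.0313), and Adgrv1, a very large adhesion receptor (0.34 ± 0.079, adjusted p = 0.0442). The groups overlapped in each of these 4 peaks.

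Among the peaks that fell, the smallest p belonged to Pcdh15 (chr10:74403203-74403534), a protocadherin best known from the tip links of hair cells. It had 0.491, 0.777 and 0.959 CPM (lowest, median and highest) in chronically restrained mice at 45 min, against 1.14, 1.39 and 1.52 CPM in chronically restrained mice at 0 min. In handled mice it had 0.697, 0.827 and 1.33 CPM at 45 min, against 0.958, 1.41 and 2.25 CPM at 0 min. The groups did not overlap in chronically restrained mice and overlapped in handled mice. The averaged log2 change was -0.73 ± 0.117 (adjusted p = 0.000128). In chronically restrained mice alone it was -0.78 ± 0.17 and was not called (adjusted p = 0.135). Without animal 45 it was -0.80 ± 0.159 and was called (adjusted p = 0.0162). Animal 45 is in neither group of this comparison, which shares its spread and its sex and batch terms with all libraries of the fit. A second Pcdh15 peak (chr10:73315749-73316184) fell by 0.51 ± 0.114 on the log2 scale (adjusted p = 0.0335).

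The peak over the internal start of Hdac9 printed above (chr12:34528756-34529530) fell as well. Hdac9 encodes a class IIa histone deacetylase, a corepressor that leaves the nucleus when neurons are active. The peak had 2.23, 3.12 and 3.81 CPM (lowest, median and highest) in chronically restrained mice at 45 min, against 2.46, 4.19 and 5.50 CPM in chronically restrained mice at 0 min. In handled mice it had 2.51, 2.87 and 3.97 CPM at 45 min, against 3.65, 4.10 and 7.33 CPM at 0 min. All 14 libraries at 45 min lay below the median at 0 min, and 12 of 16 libraries at 0 min lay above every library at 45 min. The log2 change was -0.50 ± 0.0873 (adjusted p = 0.00219). It was the only called peak among the 66 over an internal start, whose median log2 change was -0.016. The internal start of Cacna1c shown above had 3.28, 3.84 and 4.87 CPM at 45 min, against 2.56, 3.34 and 4.37 CPM at 0 min, and its difference of 0.23 ± 0.0708 was not called (adjusted p = 0.266).

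Peaks in Nav2 and Syne1 fell as well. The peak in Nav2 (chr7:49180903-49181595), a neuron navigator that steers neurites, had 0.934 to 1.61 CPM with a median of 1.27 at 45 min, against 1.39 to 2.21 CPM with a median of 1.85 at 0 min. Its log2 change was -0.49 ± 0.095 (adjusted p = 0.00515), and 12 of 16 libraries at 0 min lay above every library at 45 min. A pair of neighbouring peaks lay in Syne1, a giant nesprin that ties the nucleus to the cytoskeleton. The one with the larger change (chr10:5381276-5382592) had 3.21 to 5.22 CPM with a median of 3.78 at 45 min, against 4.03 to 6.89 CPM with a median of 4.93 at 0 min, and a log2 change of -0.30 ± 0.066 (adjusted p = 0.0205). The groups overlapped, with 10 of 14 libraries at 45 min below every library at 0 min. The other Syne1 peak (chr10:5378633-5380089) had the higher level, with 5.75 to 8.29 CPM and a median of 6.92 at 45 min, against 6.53 to 11.8 CPM and a median of 8.08 at 0 min, and a log2 change of -0.24 ± 0.056 (adjusted p = 0.0376).

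In the cadherin Cdh12, a peak at chr15:21405255-21406127 had a log2 change of -0.40 ± 0.084 (adjusted p = 0.0125). A narrow peak of 118 bp (chr15:20462267-20462384) had a log2 change of -0.80 ± 0.171 (adjusted p = 0.018). The narrow peak had the lowest mean count of the 23, 15.5 per library. Peaks also fell in Pde1c, a calmodulin-dependent phosphodiesterase (-0.60 ± 0.119, adjusted p = 0.00617), Slc9a9, a proton exchanger of endosomes (-0.58 ± 0.13, adjusted p = 0.0294), Hpse2, a relative of heparanase (-0.63 ± 0.14, adjusted p = 0.0295), Lrp1b (-0.42 ± 0.095, adjusted p = 0.0327), Lrrc4c, a netrin-G ligand of the synapse (-0.33 ± 0.075, adjusted p = 0.0381), Cntnap2 (-0.55 ± 0.129, adjusted p = 0.046) and Macrod2 (-0.48 ± 0.113, adjusted p = 0.0478). In each of these 7 genes the libraries at 45 min and at 0 min overlapped. Lrp1b, Cntnap2 and Macrod2 are 3 of the 5 longest genes.

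**Figure D2:**
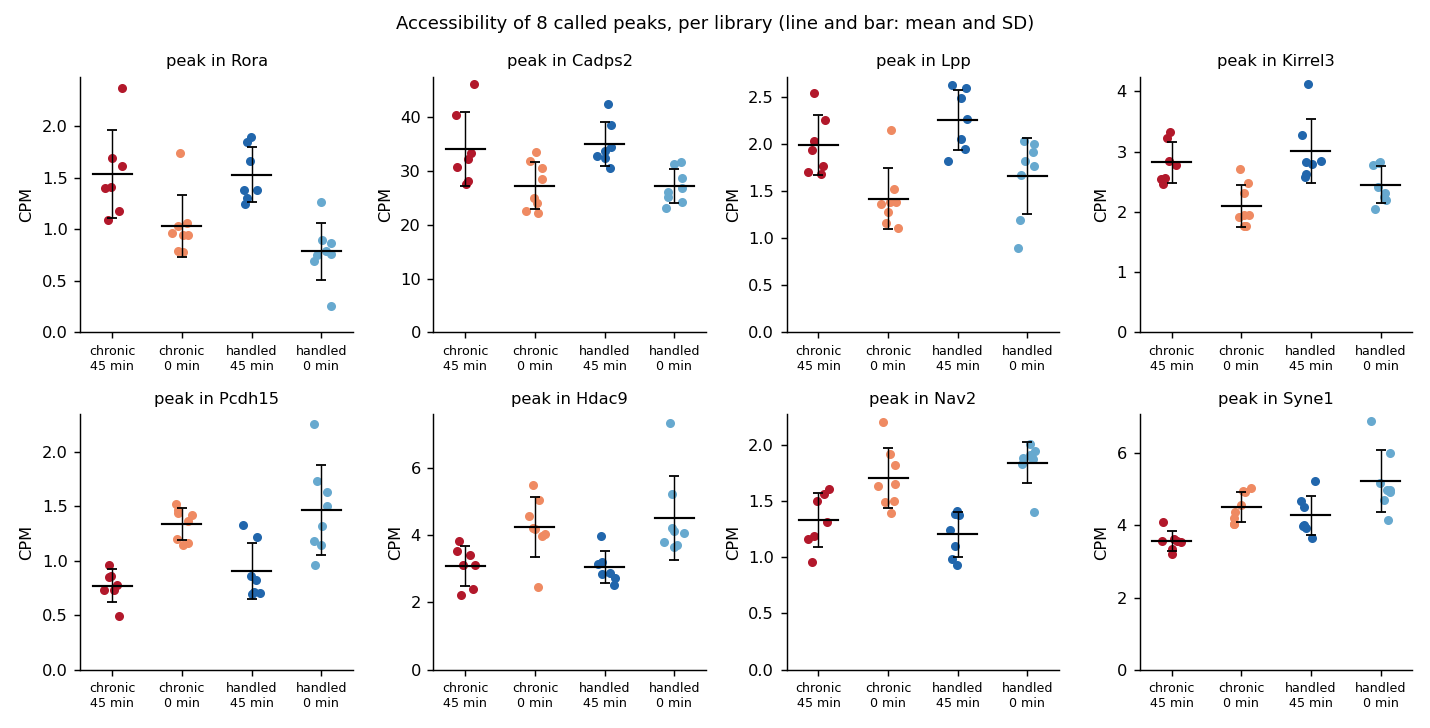
Level of 8 called peaks in CPM (y axes start at 0) in each library of the 4 groups, with the mean as a line and the SD as a bar. In the upper row the libraries at 45 min lie mostly above those at 0 min, as in Rora with 14 of 16 libraries at 0 min below all at 45 min, and in the lower row mostly below them.

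The member peaks as a whole leaned to lower values at 45 min. Their median log2 difference was -0.024 and 41.4% were positive, against a median of -0.0025 and 49% over all tested peaks. In genes of 100 kb to under 500 kb the median was -0.0033 with 48.7% positive, and in genes under 100 kb it was 0.010 with 54.3% positive. Of the member peaks in the lowest quartile of mean count 60.5% were negative, and of those in the highest 57.2%. Without animal 45 the median over member peaks was -0.018 with 43.2% positive, against 0.00017 and 50.1% over all tested peaks. Of the member peaks in the lowest quartile 60.2% were then negative, while in the highest quartile the share was 50.7%. These are descriptions with no test, since peaks of a library share its composition.

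Summed over all its member peaks, a long gene was tested as a unit, in a fit of 11958 protein-coding genes with interior peaks. Adgrb3, Hdac9 and Syne1 fell after acute restraint, and 0 of the 214 long genes rose. Over all genes 0.92% were called, 0.636% higher and 0.284% lower. At an unadjusted p under 0.05, 56 long genes were lower and 2 were higher, together 27.1% of them. The share was 18.7% in genes of 100 kb to under 500 kb and 11.8% in all genes. DESeq2 called 2 long genes lower and 0 higher, and its share called over all genes is not given here. Of the 214 sums 186 were negative, with a median log2 difference of -0.046, against 65.1% negative and a median of -0.017 in genes of 100 kb to under 500 kb, and 44.2% and 0.0086 in genes under 100 kb. Without animal 45, 75.2% of the long-gene sums were negative, against 57.6% in genes of 100 kb to under 500 kb and 43.3% under 100 kb. The medians were then -0.030, -0.0070 and 0.0082. The median gene pooled 40 peaks in the long class, against 22 and 4 in the shorter classes. A sum over more peaks varies less, so these shares can differ between classes even for an equal shift. In these descriptions the libraries are shared by all genes.

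Adgrb3, an adhesion receptor at synapses that controls dendrites, had a summed level of 228, 236 and 249 CPM (lowest, median and highest) over its 145 peaks at 45 min, against 233, 248 and 286 CPM at 0 min. The groups overlapped, with 8 of 16 libraries at 0 min above every library at 45 min. The log2 change was -0.071 ± 0.017 (adjusted p = 0.0248), and 105 of the 145 peaks were negative although 0 was called. Hdac9, with 54 peaks, had 77.1, 80.8 and 88.3 CPM at 45 min, against 79.3, 88.0 and 112 CPM at 0 min. Its log2 change was -0.12 ± 0.03 (adjusted p = 0.0404), with 46 of 54 peaks negative. Syne1, with 113 peaks, had 223, 234 and 242 CPM at 45 min, against 233, 243 and 279 CPM at 0 min. All 14 libraries at 45 min lay below the median at 0 min, and the log2 change was -0.066 ± 0.017 (adjusted p = 0.0473). None of the 3 was called without batch 1 or without batch 2, and of the 3 Hdac9 alone was called without batch 3. Syne1 was not called with total count scaling (adjusted p = 0.0538) or by DESeq2 (adjusted p = 0.0595), Hdac9 in the model without batch (adjusted p = 0.0691) or Adgrb3 without batch 4 (adjusted p = 0.0534).

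These 3 genes were called on lower sums, so an excess of negative peaks goes with that choice. In Hdac9 27 of 32 peaks on the 5′ side of the midpoint of the gene and 19 of 22 on the 3′ side were negative (median log2 differences -0.100 and -0.134). In Syne1 the counts were 46 of 61 (median -0.077) and 32 of 52 (-0.026), and in Adgrb3 50 of 80 (-0.029) and 55 of 65 (-0.092). Over all member peaks 58.6% were negative, with a median of -0.024. The 3′ side of Syne1 and the 5′ side of Adgrb3 lay near that median. The peak at the gene end of Syne1 differed by -0.11 ± 0.05 (adjusted p = 0.613) and that of Adgrb3 by -0.083 ± 0.115 (adjusted p = 0.949). The end peak of a gene was the one with the highest mean count within 1 kb of either end. Over the 189 long genes with such a peak, 122 end peaks were negative, with a median of -0.02. Of these end peaks 0 were called, against 0.116% of all tested peaks. Of the same genes 162 had a negative sum, with a median of -0.044. A single peak varies more than a sum over many peaks (median 40 per long gene). These counts therefore do not say whether gene ends leaned less than interiors.

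**Figure D3:**
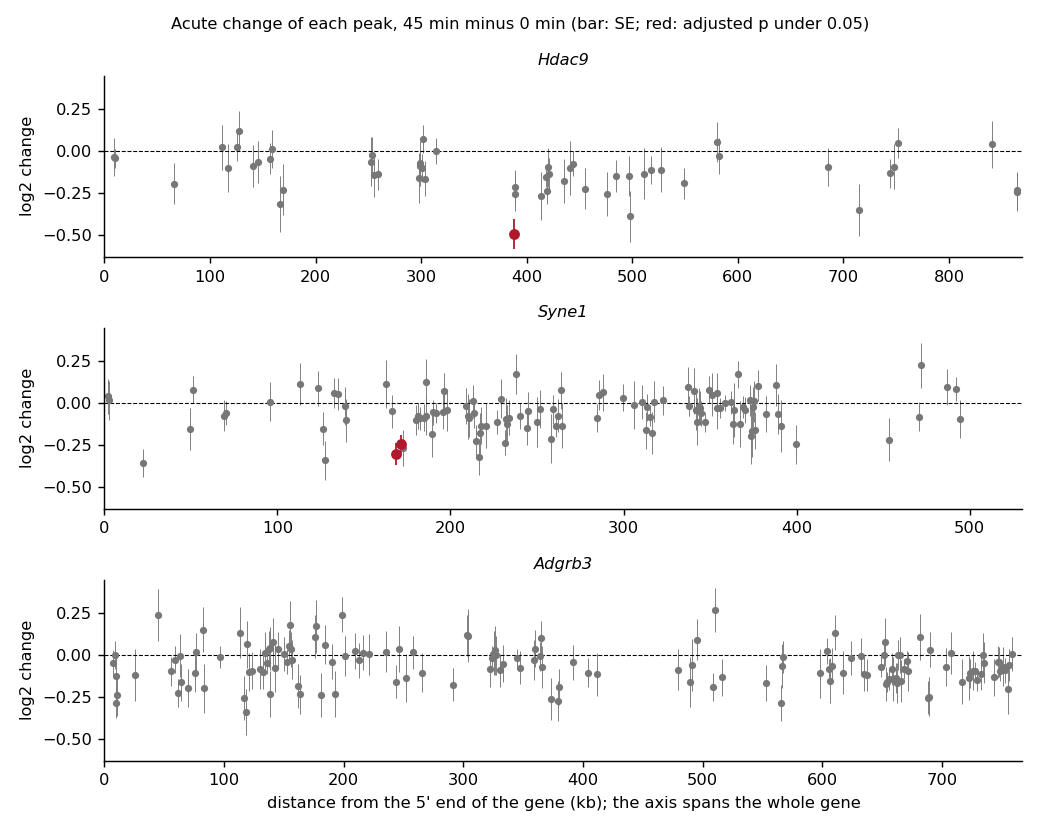
Acute log2 difference (45 min minus 0 min, with SE bars) of each peak inside Hdac9, Syne1 and Adgrb3 against its distance in kb from the 5′ end of the gene. Called peaks are red, 1 in Hdac9 and 2 in Syne1, and most of the other peaks also lie under 0.

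By function, the negative lean ran through every list of long genes. Of the synaptic organisers and neurexin-type adhesion genes 21 of 22 had a negative sum, with a median log2 difference of -0.057, and Adgrb3 was the called gene among them. All 12 cadherins, protocadherins, catenins and teneurins were negative, with a median of -0.061 and 0 called. Of the kinase, phosphodiesterase and GTPase genes 22 of 25 were negative (median -0.062), of the axon guidance genes 8 of 9 (-0.072) and of the glutamate and GABA receptor genes 7 of 8 (-0.054), with 0 called in each.

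Of the transcription factor, chromatin and RNA-binding genes 18 of 19 were negative (median -0.034), with Hdac9 called, and of the cytoskeleton and scaffold genes 18 of 20 (-0.039), with Syne1 called. The metabolic and fragile-site list, which also held Hdac9, had 14 of 16 negative (-0.041) and the immunoglobulin-type adhesion list 9 of 10 (-0.029). The ion channel list had the fewest, 11 of 16 (median -0.025), and 47 of the 58 genes in no list were negative (-0.042). The 214 genes as a whole had 186 negative, so no list is singled out by these counts. Without animal 45 the counts were 18 of 22 for the synaptic organisers (median -0.038), 10 of 12 for the cadherin list (-0.041), 22 of 25 for the kinase list (-0.042), 8 of 9 for axon guidance (-0.058) and 7 of 8 for the glutamate and GABA receptors (-0.030). They were 13 of 19 for the transcription factor list (-0.018), 14 of 20 for the cytoskeleton list (-0.020), 13 of 16 for the metabolic list (-0.026), 7 of 10 for the immunoglobulin-type list (-0.015), 10 of 16 for the ion channels (-0.020) and 40 of 58 for the genes in no list (-0.029). Every list thus kept more negative than positive sums, with smaller medians.

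The largest differences among the sums belonged to genes with few peaks and were not called. Sgcz, a sarcoglycan with 8 peaks, had a log2 difference of -0.17 ± 0.0808 (adjusted p = 0.398) and Grm8, a presynaptic glutamate receptor with 13 peaks, -0.15 ± 0.0644 (adjusted p = 0.354). Cadps2 had the largest positive one, 0.13 ± 0.0454 (adjusted p = 0.209), although 18 of its 27 peaks were negative. Camta1, a calmodulin-binding transcription activator, had 605, 616 and 645 CPM at 45 min, against 579, 601 and 660 CPM at 0 min, and a difference of 0.03 ± 0.0139 (adjusted p = 0.368). The genes with the most peaks had differences near 0: Rbfox1 differed by -0.011 ± 0.022, Celf2 by -0.028 ± 0.023, Dlgap2 by -0.019 ± 0.012, Tenm2 by -0.018 ± 0.013 and Erc2 by 0.007 ± 0.015.

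**Figure D4:**
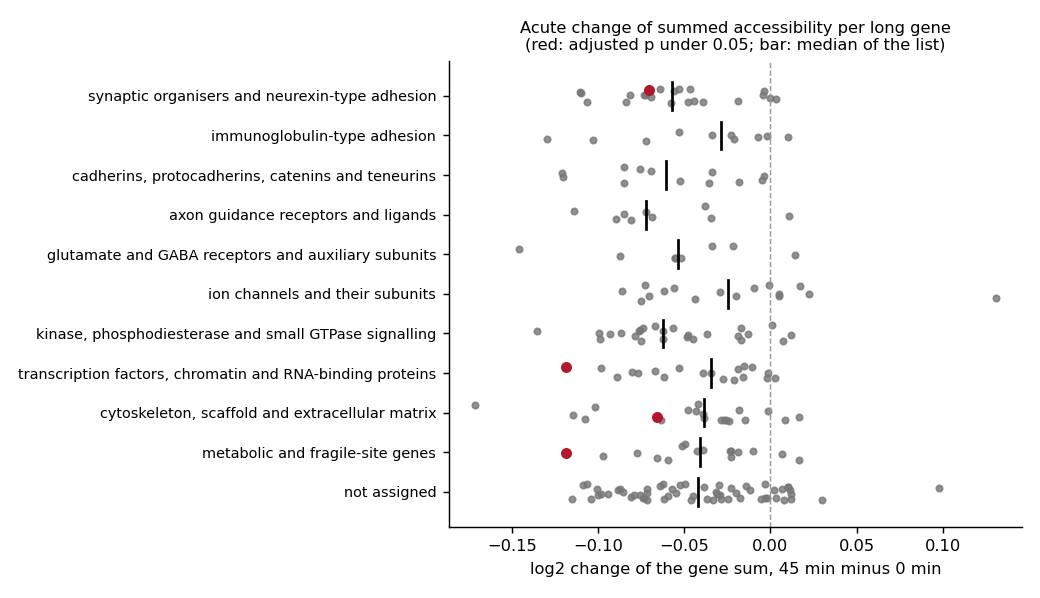
Log2 difference of the summed accessibility of each long gene at 45 min minus 0 min, with 1 point per gene in each function list and the median as a bar. Called genes are red (Adgrb3, Syne1 and Hdac9, the last in both of its lists), and 186 of the 214 genes lie left of 0.

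The lean depended on batch and on a single library. In batch 1, 172 of the 214 sums were lower at 45 min (median log2 difference -0.043), in batch 2, 182 (-0.068), and in batch 4, 199 (-0.097). In batch 3 it was turned round, with 81 of 214 lower and a median of 0.015. Animal 45 belonged to batch 4, and without it 136 of 214 sums were lower there (median -0.014). In the fit of all libraries but animal 45, 161 of 214 sums were negative for the averaged acute effect, with a median of -0.030. In females 190 sums were lower at 45 min and in males 184. Both counts compare means with no term for batch, and the females include animal 45.

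The histories gave similar counts before that library was set aside. In chronically restrained mice 172 of 214 sums were negative (median log2 difference -0.039), and in handled mice 189 (-0.046). Without animal 45 the counts were 175 (-0.044) and 131 (-0.0093). In chronically restrained mice 0 member peaks and 0 long genes were called, against 0.00272% of all peaks and 0.0585% of all genes. An unadjusted p under 0.05 was found for 861 member peaks (5.41%, against 4.73% of all peaks) and 21 long genes (9.81%, against 6.4% of all genes). In handled mice 1 member peak (Rora) and 0 long genes were called, against 0.0109% of all peaks (0.00972% higher and 0.00117% lower) and 0.117% of all genes. Here 1023 member peaks (6.43%, against 5.52% of all peaks) and 28 long genes (13.1%, against 7.53% of all genes) had an unadjusted p under 0.05. DESeq2 called 0 member peaks in chronically restrained mice and 3 in handled mice, and 0 long genes in either. Its shares called over all peaks and all genes are not given here, so these counts do not set members apart. The smallest p among the sums in chronically restrained mice belonged to Pcdh15, with a log2 difference of -0.19 ± 0.059 (adjusted p = 0.454). It was called without animal 45 (-0.19 ± 0.039, adjusted p = 0.00662), a library in neither group of this comparison. In handled mice the smallest p belonged to Adgrb3, with -0.088 ± 0.024 (adjusted p = 0.206). For the interaction 0 member peaks and 0 sums were called by edgeR and by DESeq2, and edgeR called 0% of all peaks and of all genes. An unadjusted p under 0.05 was found for 495 member peaks (3.11%, against 3.03% of all peaks) and 1 long gene (0.467%, against 2.14% of all genes). The smallest p for the interaction belonged to peaks in Asic2, an acid-sensing channel (0.92 ± 0.242), Mast4 (0.73 ± 0.196) and Kcnma1, a calcium-activated potassium channel (0.75 ± 0.217), all with an adjusted p of 1. The signs of the interaction turned on animal 45: 77 of 214 sums were negative with it and 170 without it.

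The share of all counts in member peaks gives the same comparison without scaling between libraries. Chronically restrained mice had 3.21%, 3.22% and 3.34% (lowest, median and highest) at 45 min, against 3.23%, 3.28% and 3.38% at 0 min. Handled mice had 3.20%, 3.24% and 3.31% at 45 min, against 3.20%, 3.30% and 3.45% at 0 min. The groups overlapped, and 11 of 14 libraries at 45 min lay below the median at 0 min. The averaged difference was -0.051 percentage points (two-sided permutation test, p = 0.0277, adjusted p = 0.221 over 8 comparisons). That test ignored batch. With labels permuted within batch the permutation p was 0.0117 and the adjusted p 0.0938. It was -0.055 in batch 1, -0.059 in batch 2, -0.029 in batch 3 and -0.045 in batch 4. The log2 ratio of member counts to counts in interior peaks of shorter genes differed by -0.031 (adjusted p = 0.462, or 0.208 when permuted within batch), with -0.029, -0.038, 0.0043 and -0.047 in batches 1 to 4. Without animal 45 the averaged difference in the share was -0.050 percentage points and that in the ratio -0.021 (adjusted p = 0.295 and 0.578), and in handled mice the ratio differed by -0.012 without that library and by -0.031 with it.

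The share also moved with the concentration of counts in the strongest peaks. Over 30 libraries it correlated with the percentage of counts that lay in the top 1% of peaks by coverage (Pearson r = -0.53, permutation p = 0.0027, adjusted p = 0.0054; Spearman rho = -0.56, p = 0.0017, adjusted p = 0.0034, over 2 measures). Without the 2 libraries farthest from the median, those of animals 66 and 45, r was -0.64. Both shares have the same total as their base. For the log2 ratio r was 0.18 (permutation p = 0.34) and rho -0.036 (p = 0.85), and r was -0.18 without the same 2 libraries. The share in the strongest peaks was 20.2% to 21.3% at 45 min, against 19.96% to 21.5% at 0 min, and its part in the acute difference was not tested beyond the covariate fit given above.

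**Figure D5:**
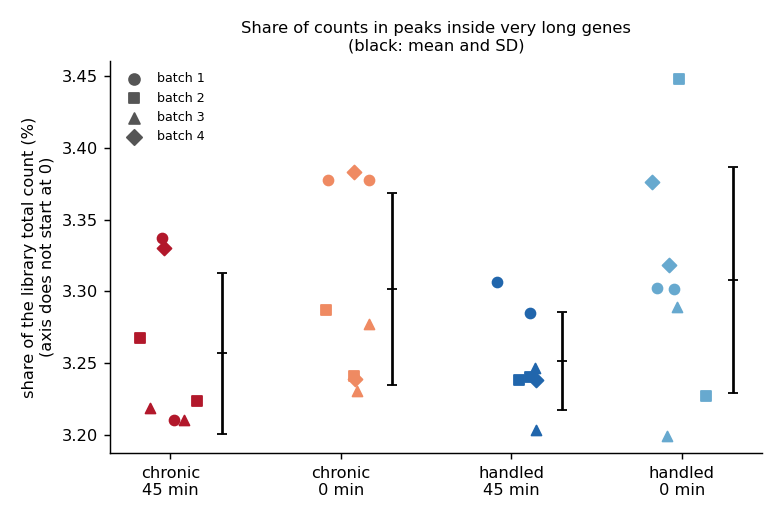
Share of each library's total count that fell in peaks inside very long genes, in percent, by group and batch, with the mean and SD in black. The axis runs over a narrow range, from 3.20% to 3.45%, and the groups overlap.

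Chronic restraint changed no member peak and no long gene by this test. Against handled mice, 0 of 15902 peaks were called averaged over both times, at 0 min or at 45 min by edgeR or by DESeq2, and edgeR called 0% of all peaks in each. The counts at an unadjusted p under 0.05 were 847, 745 and 600, or 5.33%, 4.68% and 3.77%, against 5.44%, 4.6% and 3.78% of all peaks. The smallest p for the averaged effect belonged to the Slc9a9 peak already named for the acute effect. It had 0.263, 0.494 and 0.693 CPM in chronically restrained mice and 0.759, 0.896 and 0.958 CPM in handled mice at 45 min, which did not overlap. At 0 min it had 0.448, 0.850 and 1.18 CPM in chronically restrained mice, against 0.718, 1.16 and 1.49 CPM in handled mice, which did. Its log2 difference was -0.61 ± 0.13 (adjusted p = 0.518). Next came peaks in Fam155a, a subunit of the sodium leak channel complex (0.54 ± 0.13, adjusted p = 0.771), and Astn2, a protein of neuronal migration (-0.48 ± 0.11, adjusted p = 0.824).

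Of the gene sums 0 was called for chronic restraint by edgeR or DESeq2, and edgeR called 0% of all genes. An unadjusted p under 0.05 was found for 26 long genes for the averaged effect (12.1%, against 8.25% of all genes). The counts were 17 at 0 min (7.94% against 5.83%) and 7 at 45 min (3.27% against 4.2%). Cacna1c, the L-type calcium channel, had the smallest p with a log2 difference of 0.051 ± 0.013 (adjusted p = 0.279). Kcnd2, a potassium channel of the A-type current, had -0.10 ± 0.027 (adjusted p = 0.279) and Schip1, a partner of schwannomin, -0.048 ± 0.016 (adjusted p = 0.45). Of the 214 sums 177 were negative (median -0.031), but 128 were without animal 45 (median -0.0066). At 0 min alone 183 were negative with that library and 76 without it. These comparisons share their groups with the acute ones.

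Between females and males 0 member peaks and 0 long genes were called by edgeR and by DESeq2, against 0.035% of all tested peaks (0.0327% higher and 0.00233% lower in females), which include the sex chromosomes, and 0% of genes. At an unadjusted p under 0.05 there were 824 member peaks (5.18%, against 5.37% of all peaks) and 5 long genes (2.34%, against 4.99% of all genes). The smallest p belonged to a peak in the cadherin Cdh18 (female minus male 0.50 ± 0.12, adjusted p = 0.164), followed by Nlgn1, a neuroligin (-0.40 ± 0.10, adjusted p = 0.384), and Syt1, a calcium sensor of synaptic vesicles (-0.51 ± 0.14, adjusted p = 0.447). Among the sums Rims1, a scaffold of the active zone, had -0.06 ± 0.018 (adjusted p = 0.958). Of the 214 sums 62 were lower in females. The direction of this count turned with the library and with the scaling: 142 were lower without animal 45, and 138 with total count scaling of all libraries, under which the median over all genes was -0.017.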

How the data were processed

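The authors deposited a table of raw counts, whole numbers per peak region for all libraries on one set of regions. Per the submitters' processing notes, Trimmomatic, Bowtie2, Picard and Genrich 0.6.1 were used with the build GRCm38. How regions were combined, which tool counted them, and whether reads, fragments or insertions were counted is not given in the sources used here. No sample's labels matched 2 further columns of the table, which were left aside. Groups, sex and batch came from the labels. The number that ends a library's title was taken as that of the animal, which the labels do not state.

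Members were found from RefSeq gene extents (GRCm38.p6). No genome sequence was used, so peak sequences, planned in the rule for sequences, are not printed. Counts were tested in edgeR 4.0.16 (R 4.3.3): filterByExpr (6 of 257149 peaks removed), TMM scaling, and a robust quasi-likelihood fit with the 4 groups, sex and batch over all 30 libraries, with p-values adjusted by the Benjamini-Hochberg method over every peak tested. Counts of interior peaks were summed per gene and fitted in the same way over 11958 genes, with library sizes from the whole table. Levels are TMM-scaled CPM. The SE of a log2 change is its size divided by the square root of the F statistic of its test. The p-values set a difference against the spread between these libraries. Single values per library were compared by permutation of labels (exact where a group had under 10 libraries, otherwise 100000 resamples), two-sided. DESeq2 1.42.0, other scalings, filters, gene-length limits and left-out libraries or batches were alternatives. For these, only calls among members are given, not the shares called over all peaks or genes. The function lists and the lean of single peaks without animal 45 were added after seeing the data. The fit was also run on simulated counts with the same spread for all peaks and no effects of batch, sex or single libraries. Its outcome is not given here and does not bear on those effects.

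Member peaks had a median of 49.55 counts per library, and 544 of them a mean under 20. The peaks named are the called ones with the smallest p, up to 12 in each direction and 1 per gene, or else the 3 with the smallest p. The genes named are the 5 longest, the 10 with the most peaks, and those called or with the smallest p on their sum. The further peaks of Pcdh15, Cdh12 and Syne1, the extremes of the sums (Sgcz, Grm8, Cadps2 and Camta1), the densest and sparsest genes and the printed windows were chosen after their values were seen. The members and lists were chosen with earlier results of these data known. The values of 1 gene that the rule names are not reported here.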

Additional observations from a re-analysis of the deposited data

Results flagged for a closer look

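In groups of 7 or 8 libraries, a value was flagged when the highest or lowest library lay far from the rest of its group by Dixon's test. Chance flags about 1 in 20 groups, and here 44 of 280 groups of 70 measured items were flagged. The library of animal 45, a female handled mouse at 0 min in batch 4, accounted for 24 of them, and each time its value was the highest of its group. Its values are shared by many genes, so the flags are not independent. No cause was tested.

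Of the gene sums, its library stood apart, against the range of the other 7 libraries, in Ptprd with 137 CPM against 93.8 to 110.0, Cntnap2 with 112 CPM against 73.2 to 86, Lsamp with 269 CPM against 177 to 201, Lrp1b with 82.7 CPM against 50.5 to 58.1, Macrod2 with 152 CPM against 85.1 to 105, Rbfox1 with 791 CPM against 645 to 711 and Erc2 with 511 CPM against 449 to 477. It did so too in Ptprn2 with 766 CPM against 718 to 741, Dab1 with 622 CPM against 522 CPM in the lowest library, Adgrb3 with 286 CPM against 234 to 258, Hdac9 with 112 CPM against 79.3 to 90.8, Rabgap1l with 185 CPM against 147 to 162, Pcdh15 with 64.6 CPM against 41.3 to 48.5 and Cacna1c with 707 CPM against 659 to 679.8, and in Schip1 with 484 CPM against 416 to 431, Edil3 with 25.8 CPM against 22.4 to 23.9, Kirrel3 with 374 CPM against 317 to 341 and Cntnap5c with 23.1 CPM against 12.7 to 15.9. Of single peaks, it stood apart in those already named in Adgrv1 with 3.64 CPM against 2.1 to 2.66, Hdac9 with 7.33 CPM against 3.65 to 5.22, Hpse2 with 2.03 CPM against 0.666 to 1.31 and Cntnap2 with 1.76 CPM against 0.84 to 1.23. Of the peaks over internal start sites it did so in Schip1 with 21 CPM against 10.5 to 12.5 and Nav2 with 89 CPM against 60.4 to 68.2.

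The other flags belonged to several libraries, each set against the range of the rest of its group. Animal 1, among handled mice at 45 min, had 5.08 CPM for the Lrrc4c peak against 3.53 to 4.11 and 1.92 CPM for the Cdh18 peak against 0.565 to 1.14. Animal 3, among chronically restrained mice at 0 min, had 1.73 CPM for the Rora peak against 0.778 to 1.06, 2.14 CPM for the Lpp peak against 1.11 to 1.52, 734 CPM for the Rbfox1 gene sum against 654 to 686, 896 CPM for the Anks1b gene sum against 791 to 821 and 259 CPM for the Syne1 gene sum against 237 to 243. Animal 4, among chronically restrained mice at 45 min, had 26.3 CPM for the Edil3 gene sum against 19.7 to 22.5. Animal 5, among chronically restrained mice at 45 min, had 2.86 CPM for the wider Cdh12 peak (chr15:21405255-21406127) against 1.73 to 2.11. Animal 8, among handled mice at 0 min, had 1.4 CPM for the Nav2 peak against 1.83 to 2.01. Animal 23, among chronically restrained mice at 45 min, had 2.78 CPM for the Astn2 peak against 1.69 to 2.14 and 1.75 CPM for the Cdh18 peak against 0.699 to 0.94. Animal 36, among chronically restrained mice at 45 min, had 557 CPM for the St6galnac3 gene sum against 527 to 537 and 4.71 CPM for the Cacna1c peak over an internal start against 3.35 to 3.86. Animal 39, among handled mice at 45 min, had 2.55 CPM for the Adgrv1 peak against 3.31 to 3.81. Animal 56, among chronically restrained mice at 45 min, had 0.376 CPM for the second Pcdh15 peak (chr10:73315749-73316184) against 0.884 to 1.08. Animal 66, among chronically restrained mice at 45 min, had 5.13 CPM for the Lrrc4c peak against 3.52 to 4.11, 13.9 CPM for the Schip1 peak over an internal start against 10.7 to 11.7 and 71.4 CPM for the Nav2 peak over an internal start against 61.9 to 65.3. The library of animal 66 also had 21.3% of its counts in the most covered 1% of peaks, where the rest of that group had 20.3% to 20.7%.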

How the results depend on the processing

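No paired analysis was possible because the animal numbers in the labels are unique, so groups share no replicate numbers. The 23 member peaks called for the averaged acute effect became 9 in genes of at least 1000 kb and 35 in genes of at least 300 kb, 39 with total count scaling, 132 with the share in the top peaks as covariate, 1 in females only and 9 in males only. They became 15 without batch 1, 2 without batch 2, 13 without batch 3 and 45 without animal 45. The single call in handled mice became 0 in genes of at least 1000 kb, 3 with DESeq2, 3 with total count scaling, 28 with the covariate, 4 without animal 45, 2 without batch 1 and 0 without batch 2 or batch 3. In chronically restrained mice 0 became 1 without animal 45, 1 without batch 1 and 1 with the covariate. The 3 gene sums called became 6 with total count scaling (2 of the 3 were kept and Syne1 was lost), 5 without animal 45 (all 3 kept), 0 without batch 1 or batch 2 and 34 with the covariate, which also gave 5 in handled and 1 in chronically restrained mice, where leaving out animal 45 gave 2. The causes of these moves were not tested, and the shares called over all peaks or all genes in the same settings are not given here. All 24 calls of single peaks (Rora in 2 comparisons) were kept with DESeq2, with total count scaling, with the covariate and without animal 45. The model without batch kept 20 (Cadps2, Adarb2, Mast4 and Adgrv1 were lost), and 10 were kept without batch 1, 2 without batch 2, 8 without batch 3 and 12 without batch 4.

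Differences near 0 changed sign and were called in no setting. The share for chronic restraint became 0.00186 percentage points without animal 45, 0.0206 in genes of at least 300 kb and 0.00251 without peaks of 10 kb or wider. At 0 min it became 0.00812 in genes of at least 300 kb, and at 45 min -0.00335 in genes of at least 1000 kb. Without animal 45 the log2 ratio became 0.00065 for chronic restraint, 0.00865 at 0 min, -0.018 for the interaction and -0.00998 for sex, which was -0.00104 in genes of at least 300 kb. Of the 23 peaks called for the acute effect 4 lay in the lowest quartile of mean count and 8 in the highest. Which changes the depth left uncalled was not tested.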
